A study of Mus musculus with 12 samples.

Results

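Notch signalling genes were followed through the cells of the mouse lymph node: the ligands Dll1, Dll4, Jag1 and Jag2, the receptors Notch1 and Notch4, the DNA-binding factor Rbpj, and the target genes Hey1, Hey2 and Hes1. These 10 genes were taken by their symbols from the 32285 gene rows of the series, and all 10 were found. Their UMIs, the molecular tags that each mark 1 captured RNA molecule, were counted over 89054 cells of 12 single-cell libraries, of which 46508 cells were in the 6 libraries of the CD31 fraction and 42546 in the 6 of the CD45 fraction. Every mouse carried the floxed allele ATG12 fl/fl, was a C57BL/6 mouse of 7-10 weeks and had been given tamoxifen 5 times. Per the labels, mice were positive or negative for CDH5 CreER, a tamoxifen-dependent Cre driven from the promoter of an endothelial adhesion gene. The skin of the abdomen received 4% oxazolone, a hapten that inflames the skin and the lymph nodes that drain it, and the nodes were collected at day 3 or at day 7. Vehicle mice received the acetone and olive oil solvent alone, and the titles of their libraries name no day. Cells were split on CD45 microbeads, which bind white blood cells, into an unbound fraction, here CD31, and a bound one, here CD45, and both were then sorted. Each combination of treatment, Cre label and fraction is 1 library, and the labels do not say how many mice went into it.

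In Notch signalling, a Delta-like or Jagged ligand on one cell binds a Notch receptor on a touching cell. The receptor is cut, its inner part enters the nucleus and joins Rbpj on DNA, and genes of the Hes and Hey families, which encode transcriptional repressors, are switched on. In blood vessels Dll4 and Notch1 are known for restraining the sprouting of tip cells and for arterial identity, with Hey1 and Hey2 as arterial targets, and Jag1 on endothelium is known for signalling to mural cells. Dll4 on fibroblastic cells of lymph nodes is known for instructing lymphocytes.

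Libraries held 36724887 to 76187731 UMIs and 5698 to 10553 cells, and any 2 libraries shared 7 to 31 cell barcodes (0.111% to 0.38%). The labels call the CD31 fraction endothelial and the CD45 fraction immune, but the CD31 libraries also held 775 to 1468 B cell-like and 698 to 1158 T cell-like cells each, and most fibroblastic-like cells were in the CD45 libraries. Cells were grouped into "-like" classes by marker genes that include none of the 10 genes, and the 10 genes and 49 other Notch pathway genes were kept out of the clustering. Among the CD31 libraries, the day 3 one labelled Cre-positive gave 2277 of the 3073 cells of a cluster with few UMIs, which was left out of all classes, and 173 of the 300 cells of macrophage-like cluster C23. The vehicle library labelled Cre-negative gave 298 of the 514 plasma cell-like cells. Atg12 (ENSMUSG00000032905), the floxed gene, was higher in the library labelled Cre-positive in 19 of 21 comparisons. These are 7 CD31 classes in the same 3 pairs of libraries, so they are not separate pairs. High endothelial-like cells had 44.4 and 46.8 CPM at vehicle, 43.9 and 51.1 at day 3 and 41.7 and 41.8 at day 7, labelled Cre-negative first. The capillary-like values in the same order were 47.2 and 82.3, 52.1 and 72.7, 42.7 and 78.7. CPM is a gene's UMIs per 1000000 UMIs of that class in that library. The assay counts the 3' ends of transcripts, and whether those Atg12 ends lie outside the deleted part was not tested, so the Cre comparison is one between labels. Nothing in the labels says that the libraries come from separate mice, so p-values measure the spread between these libraries.

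The 10 genes lie on 7 chromosomes of GRCm38, by GENCODE: Dll1 (ENSMUSG00000014773) at chr17:15367354-15376872 and Dll4 (ENSMUSG00000027314) at chr2:119325784-119335962; Jag1 at chr2:137081456-137116644 and Jag2 at chr12:112907819-112929776. Notch1 lies at chr2:26457903-26516663, Notch4 at chr17:34564268-34588503 and Rbpj at chr5:53466152-53657362. Among the targets, Hey1 lies at chr3:8663359-8667256, Hey2 at chr10:30832359-30842801 and Hes1 at chr16:30064384-30067796. RefSeq promoter entries (GRCm38.p6) matched 8 of the 10 genes. The core of the sequence that Rbpj binds, TGGGAA, was searched in the 250 bases before each start, on both strands. Read from the other strand it is TTCCCA. It was present for 2 of the 8 genes, Rbpj and Hey2, and in 7094 of all 32851 promoter entries (21.6%). The E-box CACGTG, which reads the same on both strands and is the kind of site Hes and Hey proteins bind, was in none of these genes' entries and in 6.02% of all. The stretches shown leave out the gene's own GENCODE exons and are those of the 3 genes with the lowest day 3 estimates in high endothelial-like cells and of the target gene that holds the Rbpj core; capitals mark that core. The Dll1 stretch also lies in an exon of a long noncoding gene on the opposite strand. The Dll4 stretch overlaps 2 annotated exons that are not those of Dll4. Dll1 has a second entry, chr17:15375824-15376073, which is not shown.
Dll1, chr17:15376933-15377182, minus strand: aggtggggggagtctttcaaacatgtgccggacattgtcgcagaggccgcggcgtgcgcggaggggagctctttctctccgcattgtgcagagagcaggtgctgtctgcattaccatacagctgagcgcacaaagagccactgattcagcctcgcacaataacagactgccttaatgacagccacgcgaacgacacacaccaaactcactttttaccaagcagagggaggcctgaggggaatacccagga
Dll4, chr2:119325534-119325783, plus strand: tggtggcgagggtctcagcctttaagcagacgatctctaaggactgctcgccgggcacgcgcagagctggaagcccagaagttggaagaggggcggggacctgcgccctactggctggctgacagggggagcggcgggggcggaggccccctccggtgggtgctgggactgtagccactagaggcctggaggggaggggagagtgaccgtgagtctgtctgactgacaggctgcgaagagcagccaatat
Notch4, chr17:34564045-34564267, plus strand: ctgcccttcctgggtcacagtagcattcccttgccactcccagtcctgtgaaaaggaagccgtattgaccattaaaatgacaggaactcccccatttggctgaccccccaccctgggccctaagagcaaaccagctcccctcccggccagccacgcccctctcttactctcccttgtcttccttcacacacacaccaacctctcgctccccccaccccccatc
Hey2, chr10:30842802-30843033, minus strand: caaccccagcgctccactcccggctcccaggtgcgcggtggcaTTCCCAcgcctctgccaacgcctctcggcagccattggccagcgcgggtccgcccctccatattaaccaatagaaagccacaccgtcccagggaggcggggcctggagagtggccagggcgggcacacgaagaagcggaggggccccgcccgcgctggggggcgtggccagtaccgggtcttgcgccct
The match in Hey2 starts 207 bases before the RefSeq start. A match describes letters and not a bound site, and the 3 stretches without capitals say only that these letters are not in them.

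Levels are given first by class in the CD31 libraries. Sets of 6 values run through vehicle, day 3 and day 7, and within each pair the library that is Cre-negative by its label comes first. Arterial-like cells numbered 557, 367, 459, 788, 340 and 412; capillary-like 1167, 1062, 1745, 1084, 565 and 780; high endothelial-like 210, 263, 326, 319, 535 and 158. Venous-like cells were few, at 20, 56, 54, 60, 60 and 20, as were mural-like cells, at 37, 30, 12, 20, 48 and 34. Neighbours in the order of mean level were compared within libraries by an exact two-sided sign-flip test over 6 pairs, whose smallest possible p is 0.0312. Over the 10 genes and 11 classes, 26 of 100 neighbouring pairs reached that p. None passed after Benjamini-Hochberg adjustment, the lowest adjusted p being 0.120. A pair could not pass, whatever its difference, unless most of the 100 pairs reached the smallest p. The order is therefore described by how many libraries share it, and pairs called not separated are ones above the smallest p. The spread in these comparisons includes treatment and Cre label. Blood endothelial clusters without a class name were not in this order. Their means were 93.0 CPM for Dll4, 67.7 for Jag2, 78.4 for Notch4 and 42.8 for Hey1. The background was read from B cell-like cells, which should lack the endothelial genes: mean Dll4 was 0.754 CPM there, Hey1 0.249 and Notch4 0.791.

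**Figure D1:**
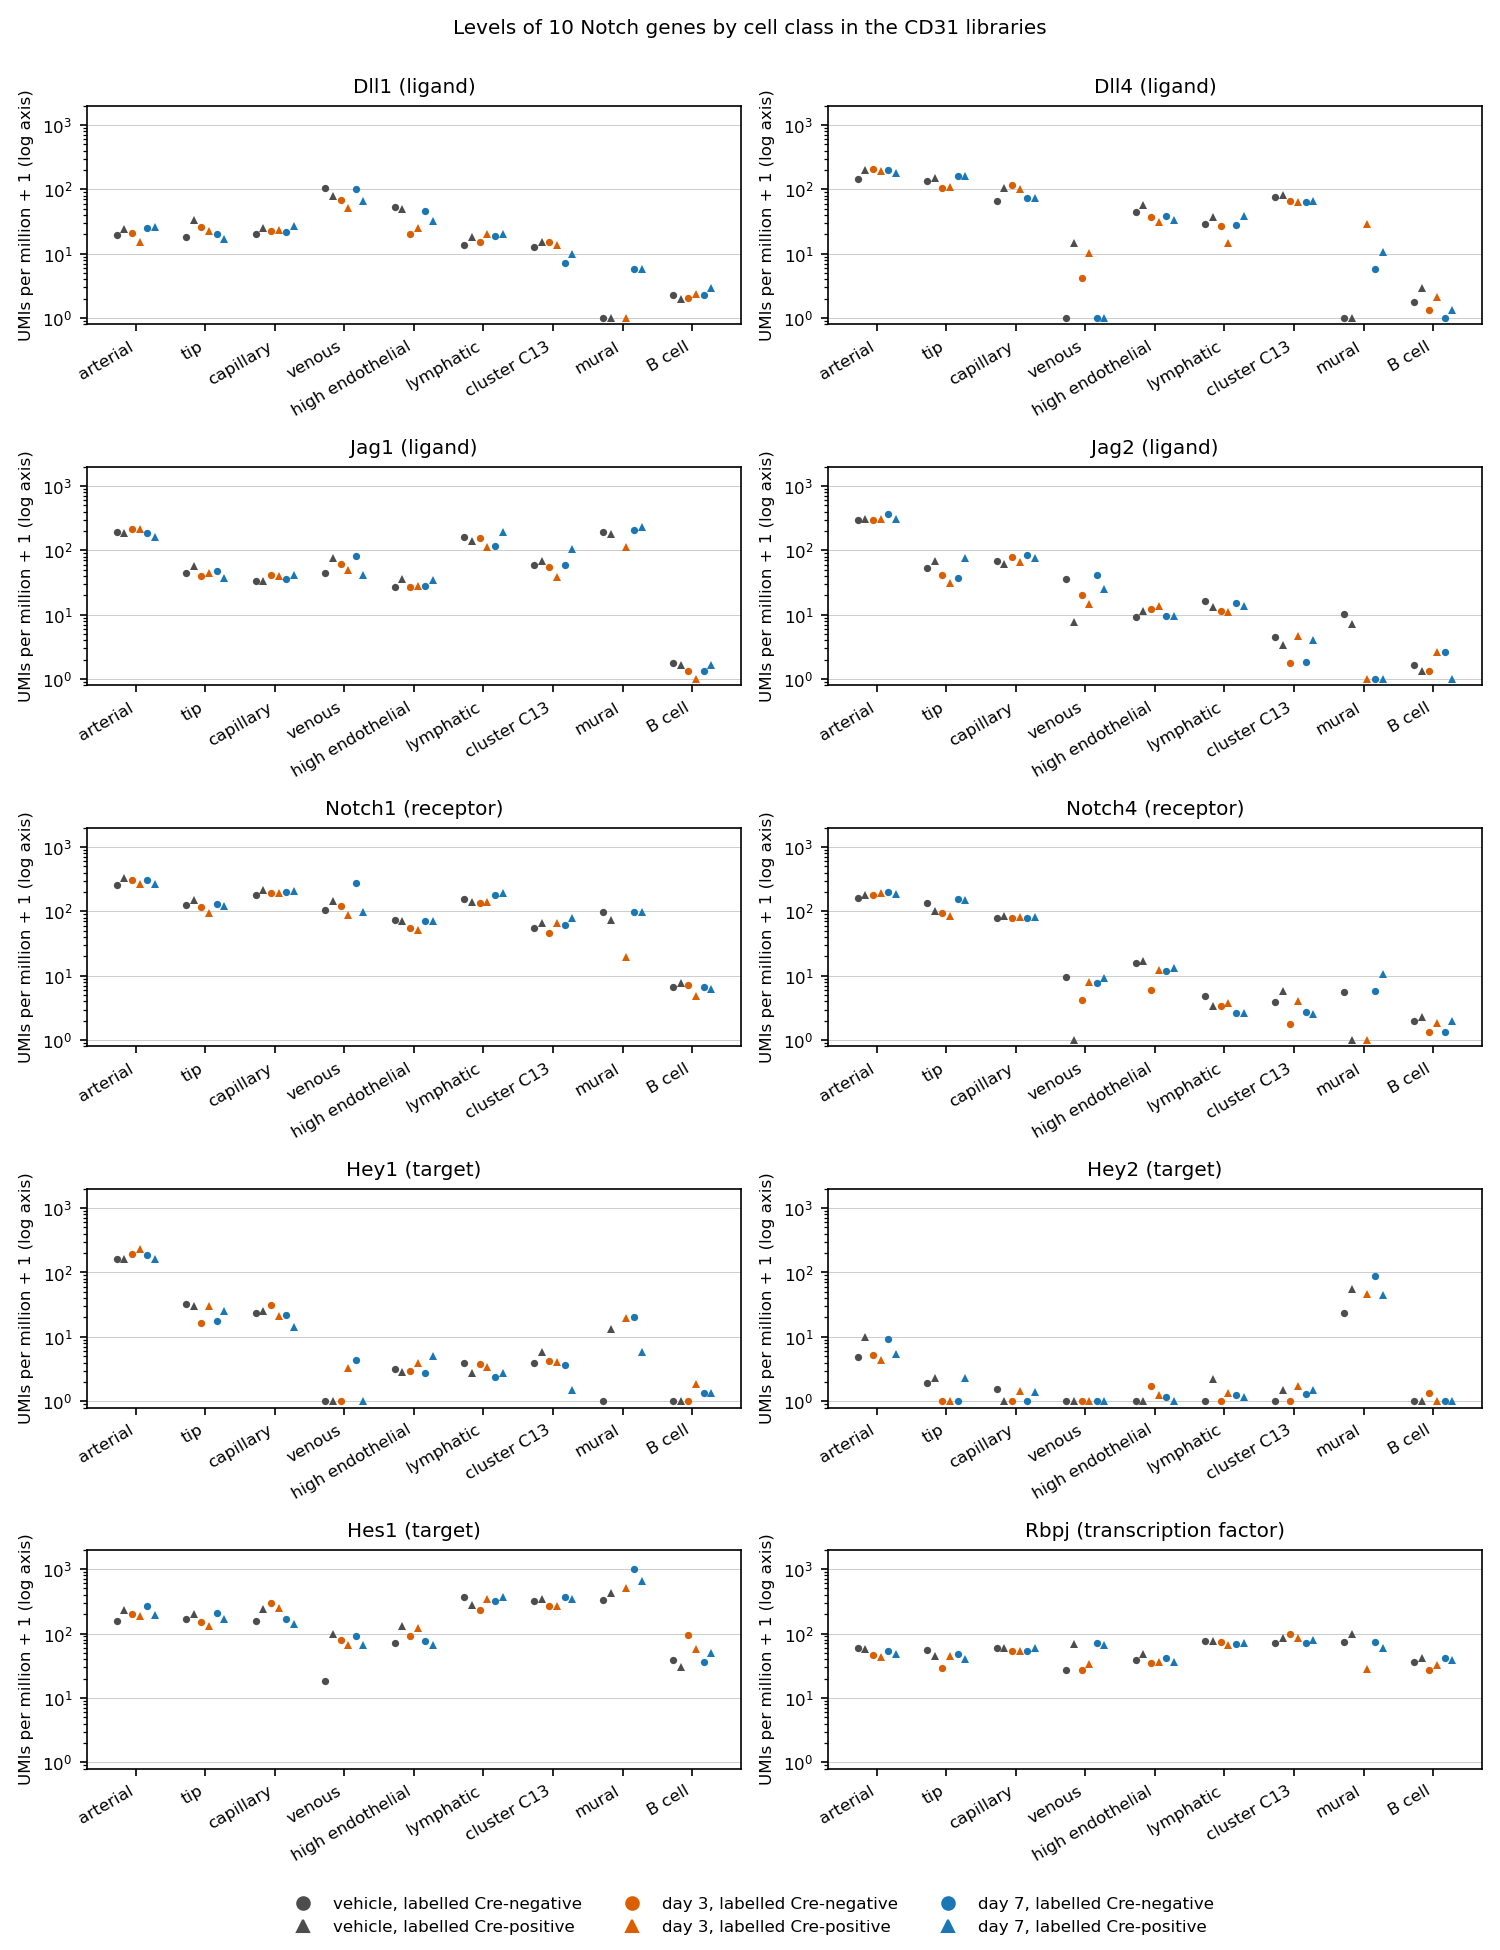
CPM plus 1, on a log axis, of each of the 10 genes in 9 cell classes; each point is 1 CD31 library, coloured by treatment and shaped by Cre label, and the 12-cell mural-like sum is not drawn. Dll4, Jag2, Notch1, Notch4 and Hey1 are highest in arterial-like cells, Dll1 in venous-like cells and Hey2 and Hes1 in mural-like cells.

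Dll4, Jag1 and Jag2 had their highest mean in arterial-like cells and Dll1 in venous-like cells. Dll4, the ligand that arterial and sprouting endothelium is known for, stood in arterial-like cells at 143, 199, 207, 190, 201 and 176 CPM (mean 186 ± 23.5, SD, n = 6 libraries). In tip-like cells, named for markers of sprouting such as Apln and Angpt2, it stood at 131, 148, 104, 106, 159 and 162. It was higher in arterial-like cells in all 6 libraries, by 0.47 (log2; SD 0.36, exact sign-flip p = 0.0312, adjusted 0.120). Capillary-like cells had 65.9, 105, 117, 101, 71.2 and 73.0 CPM of Dll4 and overlapped tip-like cells at day 3. High endothelial-like cells had a mean of 39.0 ± 9.19, lymphatic-like cells 27.9 ± 8.36 and venous-like cells 4.35 ± 5.80, with 0 UMIs in 3 of the 6 venous-like sums. Among the named blood vessel classes venous-like cells had the lowest mean of Dll4 and, as given next, the highest of Dll1.

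Dll1, the other Delta-like ligand, was highest in venous-like cells, at 105, 78.5, 67.9, 50.6, 100 and 64.8 CPM, from 8 to 30 UMIs per library. High endothelial-like cells, which line the venules where lymphocytes enter the node, came next at 51.9, 49.0, 19.5, 23.9, 44.7 and 30.7. The venous-like value was the higher one in all 6 libraries, by 1.11 (log2; SD 0.35, exact sign-flip p = 0.0312, adjusted 0.120). Below them, capillary-like (mean 22.4 ± 2.55), tip-like (21.9 ± 6.26) and arterial-like cells (20.7 ± 3.93) overlapped, with exact sign-flip p = 0.688 and 0.781 between neighbours. B cell-like cells had a mean Dll1 of 1.33 CPM.

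Jag2 was highest in arterial-like cells. Its arterial-like values were 293, 304, 298, 304, 360 and 308 CPM, and capillary-like cells had a mean of 71.3 ± 8.21, so that the arterial-like value was 2.12 higher on the log2 scale (SD 0.13, 6 of 6 libraries, exact sign-flip p = 0.0312, adjusted 0.120). High endothelial-like cells had 9.94 ± 1.67 CPM of Jag2 and cluster C13 2.40 ± 1.30. C13, led by Ccl20, Bmp2 and Hs6st3, had the lymphatic markers Prox1, Lyve1, Flt4 and Pdpn over 2-fold above the other cells but none of them among its leading genes, and was fitted under its number. Jag1 did not follow Jag2. In lymphatic-like cells it stood at 161, 140, 152, 113, 114 and 192 CPM, which overlaps the arterial-like range of 160 to 215, and these classes were not separated (higher in arterial-like cells in 5 of 6 libraries, exact sign-flip p = 0.0938, adjusted 0.218). Mural-like cells, the contractile cells around vessels, had 183 ± 45.3 CPM of Jag1 over the 5 libraries with at least 20 of them. In capillary-like cells Jag1 was 36.6 ± 3.94 and in high endothelial-like cells 29.1 ± 4.01.

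Within the arterial-like class, Jag1 divided the 3 clusters. Cluster B17 (487 cells), led by Mgp, Stmn2 and Efna5, had 583, 612, 862, 770, 502 and 744 CPM of Jag1. Cluster B1 (1776 cells) had 111, 73.7, 114, 113, 109 and 94.9, and B15 (660 cells) 111, 107, 134, 188, 120 and 114. B17 lay above both other clusters in every library, without overlap. Jag2 followed, at a mean of 462 ± 44.2 CPM in B17, 317 in B1 (range 278 to 355) and 195 ± 54.3 in B15, and so did Hey2, at 27.5 ± 10.4 in B17, 1.81 ± 1.18 in B1 and 0.348 in B15, where 1 UMI was found in 1 of 6 libraries. Hey1 did not, at 173 ± 28.4, 179 ± 28.6 and 206 ± 32.9, nor did Notch1, whose highest mean was in B15 at 379 ± 78.8 against 255 ± 43.2 in B17. The clusters were chosen for description after their values were seen, and the differences between them were not tested.

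**Figure D2:**
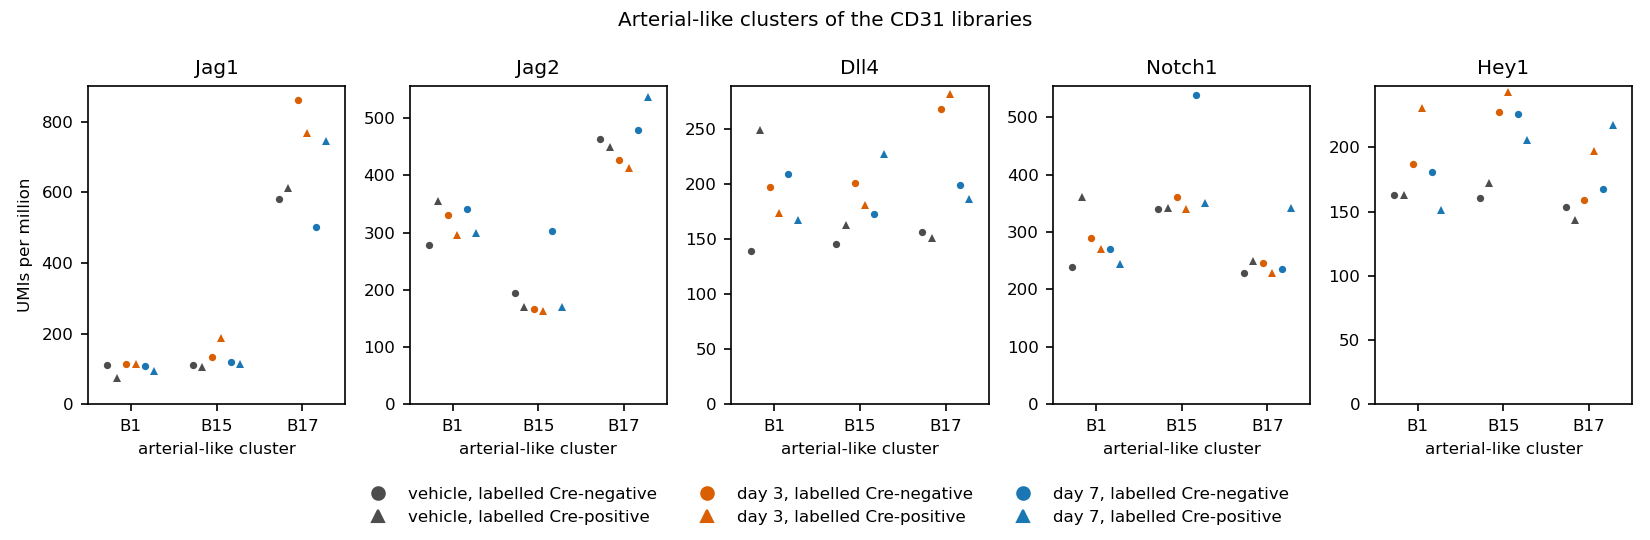
Jag1, Jag2, Dll4, Notch1 and Hey1 in CPM (linear axes from 0, scaled per gene) in the 3 arterial-like clusters; each point is 1 CD31 library. Jag1 in B17 lies between 502 and 862 and in the other clusters at 188 or below, while the Hey1 ranges of the 3 clusters overlap.

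Both receptors were highest in arterial-like cells. Notch1 stood there at 258, 334, 303, 269, 310 and 266 CPM, against a capillary-like mean of 198 ± 12.1 and a lymphatic-like mean of 156 ± 24.6. The arterial-like value was higher than the capillary-like one in 6 of 6 libraries, by 0.55 (log2; SD 0.11, exact sign-flip p = 0.0312, adjusted 0.120). Lymphatic-like, venous-like and tip-like cells were not separated for Notch1 (exact sign-flip p = 0.281 and 0.969), and high endothelial-like cells were lower at 64.7 ± 9.24, close to cluster C13 at 61.5 ± 11.4. T cell-like cells, in which Notch1 is known to act, had 46.8 ± 1.30.

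Notch4, known as an endothelial receptor, was high in 3 named classes. Arterial-like cells had 158, 180, 181, 192, 196 and 184 CPM, tip-like cells a mean of 119 ± 30.8 and capillary-like cells 80.2 ± 1.97. High endothelial-like cells had 15.0, 15.95, 4.93, 11.1, 10.8 and 12.1, lower than capillary-like cells in all 6 libraries by a mean of 2.76 on the log2 scale (SD 0.53, exact sign-flip p = 0.0312, adjusted 0.120). Lymphatic-like cells, at 2.44 CPM, were near the B cell-like background of 0.791. Venous-like cells had a mean of 5.61.

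Rbpj, through which all Notch receptors act, varied less between endothelial classes than any ligand or receptor: means ran from 38.3 in high endothelial-like to 80.3 in cluster C13, and B cell-like cells had 35.3. Conventional dendritic-like cells were higher, at 252, 844, 172, 169, 689 and 300 CPM. In both the vehicle and the day 7 pair the 2 libraries differed widely, in opposite directions by Cre label. In the CD45 libraries conventional dendritic-like cells had 310 ± 134 and fibroblastic-like cells poor in Ccl19, a chemokine of the reticular cells that guide T cells, 211 ± 29.5. Among the latter, cluster S6, led by Pi16, a marker of adventitial fibroblasts, had 399 ± 26.6 CPM, against 139 ± 19.2 in S0 and 129 ± 19.4 in S8.

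Of the targets, Hey1 was highest in arterial-like cells. The unnamed blood endothelial clusters, which were not in the order of levels, came next at 42.8 ± 5.52 CPM. Tip-like cells were the next named class. Arterial-like cells had 161, 163, 194, 227, 186 and 164 CPM, against 24.2 ± 6.87 in tip-like cells, a log2 difference of 2.90 (SD 0.51, 6 of 6 libraries, exact sign-flip p = 0.0312, adjusted 0.120). Capillary-like cells (21.8 ± 5.42) were not separated from tip-like cells (exact sign-flip p = 0.594, adjusted 0.825), but their clusters were unequal: B5 had 52.8 ± 21.5 CPM of Hey1 and B3 3.602 ± 3.32. High endothelial-like, venous-like and lymphatic-like cells had means of 2.46, 0.939 and 2.20.

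Hey2 had its highest mean of the CD31 libraries in mural-like cells. Mural-like cells had 22.8, 54.8, 46.0, 86.8 and 43.6 CPM in the 5 libraries with at least 20 cells, from 5 to 18 UMIs each. Over all classes of both fractions Hey2 had 711 UMIs. Free RNA, estimated from B cell markers, was put at 43.8%, 38.3%, 100%, 5.32% and 4.19% of the UMIs of these small sums, so the mural-like levels of Hey2, Hes1 and Jag1 are less certain than the endothelial ones. In the free RNA itself Hey2 stood at 0 to 2.78 CPM, Hes1 at 78.3 to 159 and Jag1 at 27.6 to 104. The unnamed blood endothelial clusters together had 6.92 ± 2.16 CPM of Hey2, arterial-like cells 5.53 ± 2.42 and capillary-like and high endothelial-like cells under 1. Clusters B6 and B11 of the blood endothelium, both led by Penk and with no class name, had 24.8 ± 4.63 and 19.2 ± 13.2, about the level of arterial-like cluster B17. Hes1, a target of Notch and of other signals, was spread more widely: mural-like cells had 333, 427, 515, 1017 and 663 CPM, lymphatic-like cells 321 ± 55.5, arterial-like cells 206 ± 40.6 and high endothelial-like cells 92.1 ± 27.5. B cell-like cells still had 50.5 ± 23.7. Lymphatic-like cells were not one level either: the Ackr4-led cluster C9 had 360 ± 53.1 CPM of Hes1 and 157 ± 35.8 of Jag1, and the Lyve1-led cluster C18 178 ± 75.9 and 96.3 ± 14.3.

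For each gene, the genes with the most similar pattern were found by Pearson r of log2(CPM + 1) over 84 sums of 16 classes in the CD31 libraries, among 11120 genes. These sums share libraries and depth, and r is a description. Dll1 was most like Cyb561 (r = 0.872), Dll4 like Sema7a (0.882), Jag1 like Ift43 (0.900) and Jag2 like Uaca (0.886). Notch1 was most like Golim4 (0.863), Notch4 like Cd109 (0.899) and Rbpj like Zmynd15 (0.735), a leading gene of the conventional dendritic-like cluster. Hey1 was most like Sema3g (0.853), itself one of the markers that named the arterial-like class, Hey2 like Olfm2 (0.900) and Hes1 like Pear1 (0.852). The second genes were Dchs1, Exoc3l, Agrn, Podxl, Enpp4, Efr3b, Rab9, Ssu2, Gm13861 and Timp3 in the same order.

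Changes with treatment and label were then tested on UMIs summed per library and class, with edgeR's quasi-likelihood test across all genes of a class and Benjamini-Hochberg adjustment. The model is additive in treatment and Cre label, with 2 residual degrees of freedom. The interaction of treatment and label counts as error, not a spread between replicates. That error is drawn toward the one of other genes, with 4.88 to 27.3 prior degrees of freedom by class. The model was fitted to 7 CD31 classes and, after the data had been seen, to both fibroblastic-like classes of the CD45 libraries. Between 4 and 9 of the 10 genes passed the filter on low counts in a class, which made 192 tests. Of these, 2 were called at an adjusted p under 0.05, beside 640 of 272841 tests over all genes. An unadjusted p under 0.05 was found in 14 (7.29%), beside 7.18% over all genes. The other pathway genes gave 0 calls in 924 tests, 59 of them (6.39%) with an unadjusted p under 0.05, and a lowest adjusted p of 0.0509.

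One of the called changes was in high endothelial-like cells at day 3. Dll1 fell from 51.9 (95% interval 43.0 to 62.2, counting error only) and 49.0 (41.0 to 58.1) CPM at vehicle to 19.5 (15.4 to 24.3) and 23.9 (19.2 to 29.5). The day 7 values were 44.7 (39.7 to 50.3) and 30.7 (23.5 to 39.4). Both day 3 libraries were below all 4 others. The day 3 change was -1.23 (log2; SE 0.24, edgeR adjusted p = 0.0362), and 2.13% of the 10600 genes tested in this class were called, with 1.13% of those tested called as lower. Without the vehicle library labelled Cre-positive the adjusted p was 0.0648, and without the day 3 library labelled Cre-negative the change was -0.90 with an adjusted p of 0.197. A smaller cluster, B19, led by Glycam1 and Selp but with a median of 2189 UMIs per cell against 10975 in the class, was left unnamed. It held 103, 23, 10, 216, 23 and 22 cells and had 30.1, 35.4, 20.5, 24.3, 27.5 and 11.7 CPM of Dll1, on 3 to 20 UMIs. Cluster C16, led by genes of dividing cells such as Prc1 and Cenpf, was also unnamed and in no class. Against the other cells it had a mean log2 fold of 2.97 over the cycling markers and 0.56 over the pan-endothelial ones. C16 held 56, 25, 248, 374, 21 and 55 cells, mostly of day 3, and its part in the day 3 changes was not tested.

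The share of high endothelial-like cells with a Dll1 UMI was 28.6%, 31.2%, 16.9%, 18.5%, 32.5% and 27.8%, at median depths of 10365.5, 10009, 12681.5, 10575, 10882 and 11510 UMIs. Thinned to 1000 UMIs per cell it was 5.71%, 3.80%, 2.45%, 0.940%, 5.23% and 0.633%. B cell-like cells had 0.347% to 0.774% of cells with a Dll1 UMI unthinned and 0.104% to 0.387% thinned, at median depths of 2930.5 to 3616.5. The thinned shares of the day 3 libraries lay below the vehicle ones, but the day 7 library labelled Cre-positive lay lower still, and these Dll1 values rest on few cells.

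The 3 other lowest estimates in this class did not pass: that of Dll4 was -0.60 (SE 0.21, edgeR adjusted p = 0.138), that of Notch1 -0.45 (SE 0.16, adjusted 0.144) and that of Notch4 -0.98 (SE 0.33, adjusted 0.127). Over the alternatives Dll4 ran from -0.91 to -0.27 and was called in 1 of 12, Notch4 from -1.63 to -0.51 in 3 of 11 and Notch1 from -0.48 to -0.41 in 0 of 12. Dll4 stood at 43.1 and 55.3 CPM at vehicle, 36.0 and 29.9 at day 3, and 37.6 and 32.2 at day 7, so day 3 and day 7 overlapped. Notch1 stood at 72.1 and 70.9, then 55.0 and 50.8, then 69.6 and 69.4, with both day 3 values below the rest. For Notch4 the library labelled Cre-negative at day 3 was lowest at 4.93, while the other day 3 library, at 11.1, overlapped day 7. Of the 8 genes tested in this class 6 had a negative estimate, with a median of -0.37 (log2) against 0.00 over all genes. Jag2 and Hes1 were the 2 positive ones, at 0.32 and 0.07. Among the other pathway genes 24 of 35 were negative in this class, with a median of -0.13.

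**Figure D3:**
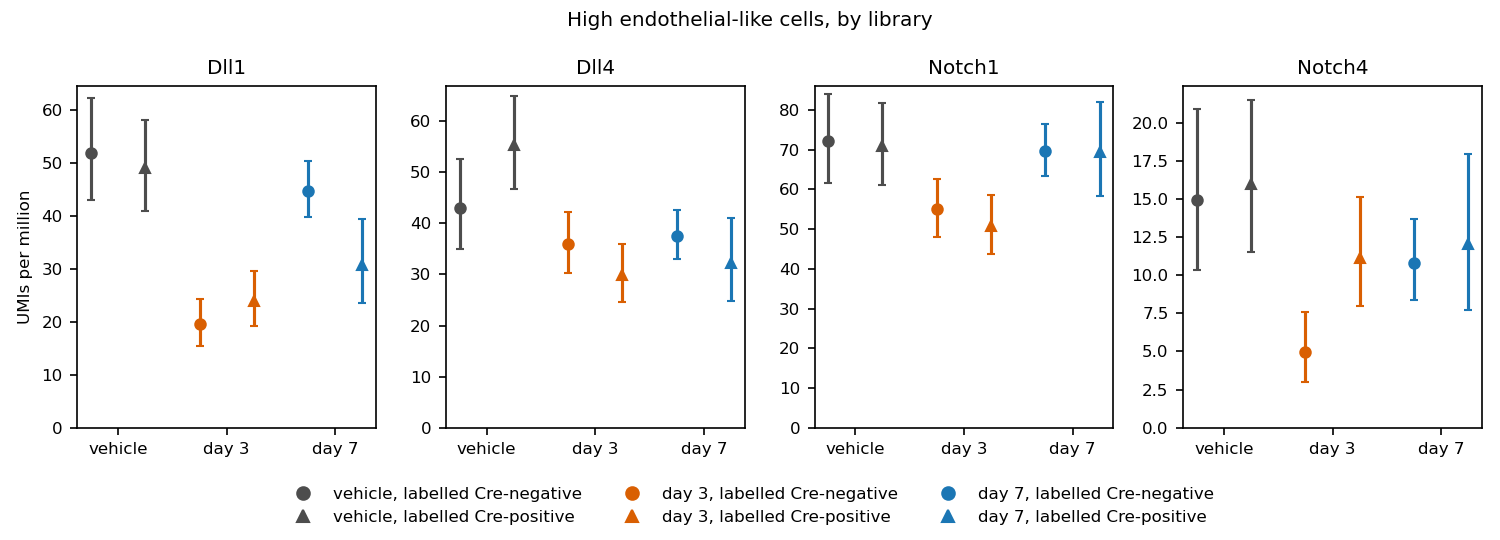
Dll1, Dll4, Notch1 and Notch4 in high endothelial-like cells, in CPM (axes from 0, scaled per gene), 1 point per CD31 library with its exact Poisson 95% interval, which covers counting error only. Dll1 at day 3 lies at 19.5 and 23.9, below all other libraries.

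Marker sums in these cells are given beside the change. The summed level of the 8 high endothelial markers was 33670, 26380, 33650, 18130, 90840 and 22630 CPM and that of the 8 venous markers 4215, 4220, 6123, 4669, 4669 and 3629. The high endothelial sum did not separate day 3 from the other libraries, and the venous sum at day 3 was at or above that of the others. The summed level of 11 immediate early genes, which respond to handling of cells, was 11163, 10411, 6452, 6247, 10093 and 7995, lowest at day 3 as Dll1 was. The part of these in the change of Dll1 was not tested. Free RNA in the droplets held Dll1 at 17.6, 27.98, 12.5, 9.65, 27.97 and 19.6 CPM and made up 0.581% to 1.40% of the UMIs of these cells by estimate; with it subtracted the call stood.

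The day 3 change was set against that of 5 other classes by a test of the difference itself, added after seeing the data. The Dll1 change was lower in high endothelial-like than in capillary-like cells, by a log2 difference of -1.34 (SE 0.31, edgeR adjusted p = 0.0100; 1.68% of genes called). Dll4 differed by -1.02 (SE 0.24, edgeR adjusted p = 0.0144) from capillary-like and by -0.88 (SE 0.19, adjusted p = 0.0495; 1.17% of genes called) from arterial-like cells. The make-up of the capillary-like class moved too. Cluster B2, led by red cell genes such as Hbb-bs and Hba-a1, gave 201, 221, 696, 385, 80 and 165 of its cells and B12 339, 141, 68, 25, 80 and 249. Within B2, Dll1 was 18.1, 19.3, 24.1, 21.4, 22.1 and 29.7 CPM and Dll4 54.4, 103, 127, 104, 105 and 86.9; the part of this mix in the differences was not tested. In capillary-like cells Dll4 had an estimate of 0.41 (SE 0.18, adjusted 0.561), which ran from 0.03 to 0.79 over the alternatives and was called in 1 of 12, and in arterial-like cells 0.28 (SE 0.17). Against lymphatic-like cells the difference for Dll1 was -1.45 (SE 0.29, edgeR adjusted p = 0.0866; 0.112% of genes called), against arterial-like -0.98 (adjusted 0.235), tip-like -1.24 (adjusted 0.292; 0.629% called) and venous-like -0.74 (adjusted 0.995; 0.0458% called). Over the alternatives the Dll1 difference from lymphatic-like cells ran from -1.62 to -1.26 and was called in 4 of 12, that from arterial-like cells from -1.59 to -0.36 in 1 of 11 and that from tip-like cells from -1.94 to -0.66 in 0 of 11. For Notch4 the difference from arterial-like cells was -1.19 (SE 0.31, edgeR adjusted p = 0.0862), from -1.76 to -0.75 over the alternatives and called in 4 of 11. That of Notch4 from capillary-like cells was -1.02 (SE 0.33, edgeR adjusted p = 0.116), from -1.65 to -0.47 and called in 0 of 11. The 3 calls for Dll1 and Dll4 are not firm, though their sign held: the Dll4 difference ran from -0.91 to -0.83 against arterial-like and from -1.15 to -0.82 against capillary-like cells over the alternatives, and the Dll1 one from -1.76 to -0.83. With cells of at least 2000 UMIs alone their adjusted p was 0.0674 for Dll1 and 0.0607 for Dll4 against capillary-like cells and 0.0528 for Dll4 against arterial-like cells. The last was also lost by DESeq2 (adjusted p 0.191) and with DESeq2 size factors, free RNA subtracted or doublets put back (0.0554 to 0.0696), and DESeq2 gave no adjusted p for the other 2. Each was also lost without either day 3 library (adjusted p 0.129 to 0.813), those against capillary-like cells without the vehicle library labelled Cre-negative (0.106 and 0.123) and both Dll4 ones without the vehicle library labelled Cre-positive (0.0665 and 0.105).

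The other CD31 classes fitted gave no call at day 3, and the unnamed blood endothelial clusters (1808, 2016, 965, 2019, 2301 and 1355 cells) were not fitted. The classes without a call include venous-like cells, where Dll1 had an estimate of -0.55 (SE 0.41) and 1.15% of all genes were called. In arterial-like cells Hey1 stood at 161 and 163 CPM at vehicle and 194 and 227 at day 3 (0.43, SE 0.15, edgeR adjusted p = 0.165; 1.36% of genes called); day 7, at 186 and 164, lay between these pairs. Over the alternatives the Hey1 estimate ran from 0.26 to 0.61 and was called in 0 of 12. In capillary-like cells Hes1 stood at 158 and 243 CPM, then 295 and 247, then 169 and 139 (0.47, SE 0.19, edgeR adjusted p = 0.517; 0.223% of genes called). Immediate early genes there summed to 2793, 2869, 4271, 4816, 1541 and 2871 CPM and were also highest at day 3; their part was not tested. Hes1 was higher in cluster B2 (376 ± 88.5 CPM) than in B12 (215, range 125 to 407), and B2 gave 39.9% and 35.5% of the class at day 3 against 14.2% to 21.2% at the other times; the part of this was not tested. Over the alternatives the Hes1 estimate ran from 0.04 to 0.92 and was called in 3 of 12. In tip-like cells all 9 genes tested had a negative estimate (median -0.34 against 0.00 over all genes, 0.820% of genes called), the lowest unadjusted p being that of Jag2 (-0.72, SE 0.31, adjusted 0.265; -1.20 to -0.17 over the alternatives, called in 0 of 11), whose values were 52.8 and 66.9, then 40.4 and 30.7, then 36.7 and 74.8. In lymphatic-like cells 6 of 7 estimates were negative and no gene of all 11880 was called, and in cluster C13 4 of 6 were negative with 0.0189% of all genes called. Venous-like cells had 4 of 5 negative. The sign was the other way in arterial-like and capillary-like cells, each with 7 of 9 positive and medians of 0.07 and 0.14. Of the other pathway genes, 18 of 23 were negative in venous-like, 22 of 37 in lymphatic-like and 17 of 31 in tip-like cells, and 16 of 33 in C13. In arterial-like cells 19 of 37 of them were positive and in capillary-like cells 17 of 37.

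**Figure D4:**
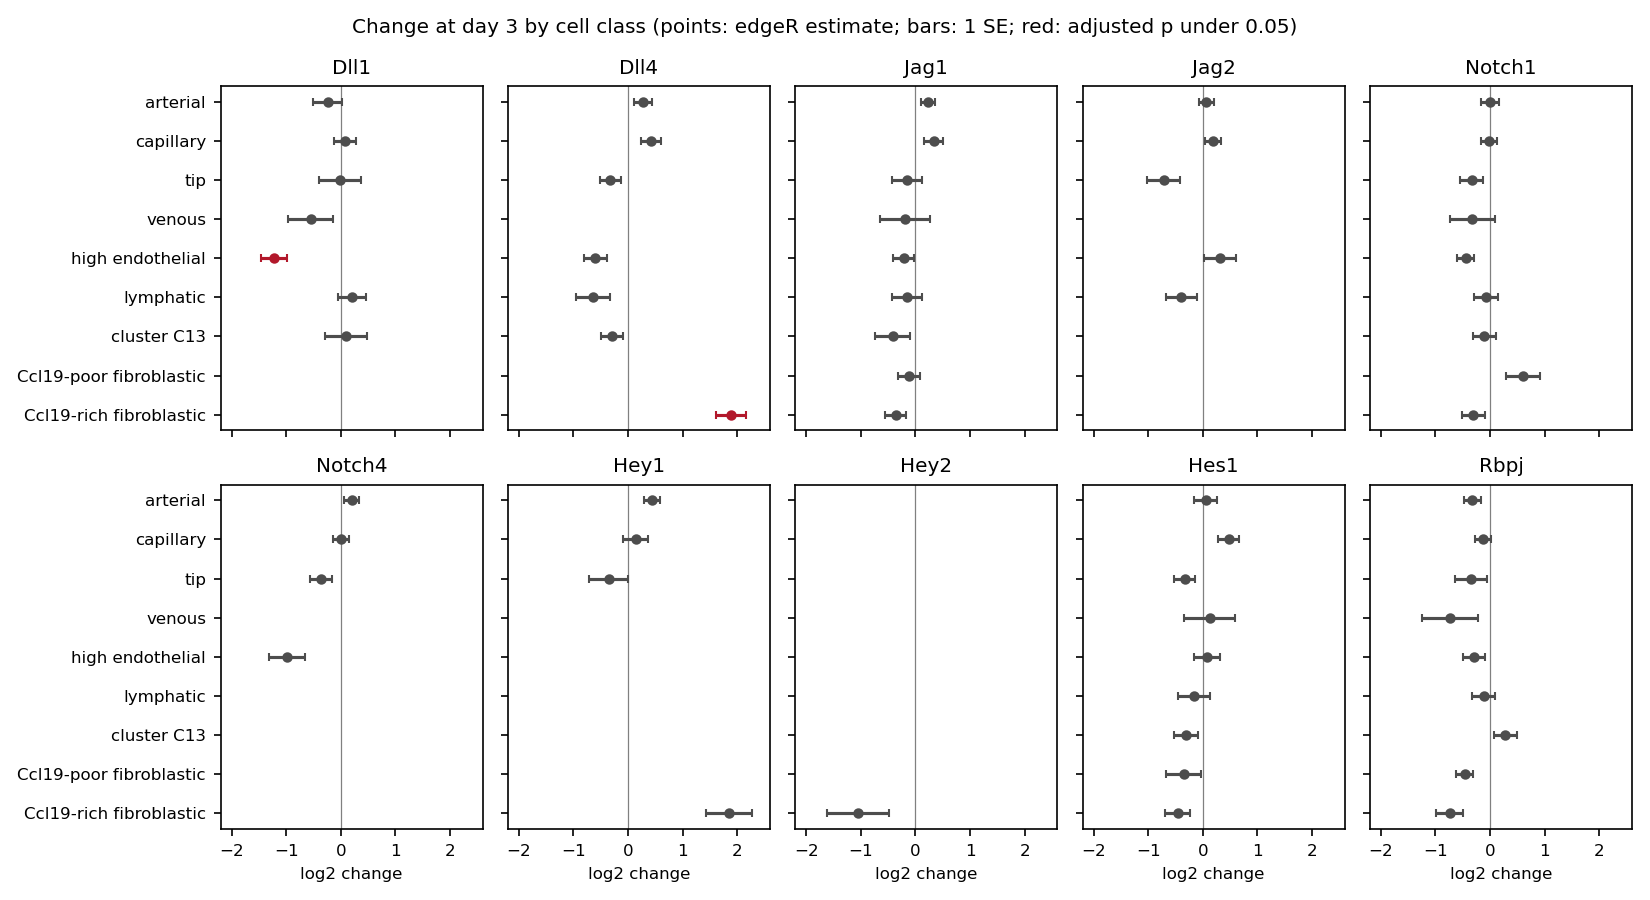
Day 3 minus vehicle, as a log2 change with 1 SE from edgeR, for each gene in the 7 CD31 classes and, in the lowest rows, the 2 fibroblastic-like classes of the CD45 libraries; a missing point is a gene that did not pass the filter on low counts. Red marks the 2 called changes, Dll1 in high endothelial-like cells at -1.23 and Dll4 in the Ccl19-rich class at 1.89.

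The second called change was in a class of fibroblastic-like cells, clusters S3, S4, S5, S9, S10 and S11, here called Ccl19-rich and put together after the data were seen. Their Ccl19 ran from 558.9 CPM in S3 to 15149 in S10, against 6.0 to 140.6 in the 3 Ccl19-poor clusters, so the name sets them against those alone: outside the class S1 had 3114 and S12, S13, S14 and S16 2004 to 3504, and S2 and S7, at 973.6 and 916.2, were above S3 and S11 (828.8). In S5 and S10 only Pdgfra and Ccl19, of the 9 fibroblastic markers, were over 2-fold above the other cells. Against the other cells S5 had a mean log2 fold of 1.67 over the mural markers and 0.56 over the fibroblastic ones. S1, S2 and S7, kept outside the class, had 4, 6 and 4 of the 9 over 2-fold. The fibroblastic name is thus weak for S5 and S10. S1, S2 and S7 together had a mean Dll4 of 21.2 ± 11.4 CPM, against 11.75 ± 8.33 in the Ccl19-rich class. They had at least 20 cells in each library but were not fitted, so the change under another grouping was not tested. The cells of the class were taken from the CD45 libraries, since the CD31 ones held 57 fibroblastic-like cells, and numbered 404, 471, 832, 510, 422 and 675. Dll4 stood at 5.43 (95% interval 2.80 to 9.48) and 7.13 (4.70 to 10.4) CPM at vehicle, 23.5 (20.6 to 26.7) and 21.4 (18.1 to 25.1) at day 3, and 7.30 (4.25 to 11.7) and 5.78 (3.90 to 8.25) at day 7. Both day 3 libraries were above all others, and the change was 1.89 (log2; SE 0.28, edgeR adjusted p = 0.0431), in a class where 0.760% of 12242 genes were called, with 0.384% of the tested genes called as higher. B cell-like cells of these libraries held 1 Dll4 UMI in all, and free RNA held 3.92, 5.27, 10.2, 5.89, 0 and 7.64 CPM.

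That change lay mainly in 1 cluster. S5, led by Fabp7 with Ccl19 and Il33 among its leading genes, held 724 cells, of which 453 and 253 came from the day 3 libraries, and its Dll4 was 33.9 and 25.3 CPM there. Without S5 the Dll4 values of the class were 5.5, 7.13, 5.65, 16.5, 7.01 and 5.28, and the change was 0.78 (SE 0.48, edgeR adjusted p = 0.497), so that only the day 3 library labelled Cre-positive stood out. Without the day 3 library labelled Cre-negative the adjusted p was 0.546, and without the other one 0.290. Cluster S9, also mostly of day 3 (180 and 150 of 352 cells), had 3.40 and 9.52 CPM. Outside the class, cluster S7, with Tenm2, Pcdh15 and Cxcl13 as leading genes, had Dll4 at every time, at 30.3, 29.8, 46.7, 38.8, 28.9 and 30.7, as did follicular dendritic-like cells, at 74.2 and 71.5 in the 2 libraries with at least 20 of them. Markers of follicular dendritic cells summed to 959, 1168, 5017, 3834, 980.5 and 506 CPM in the Ccl19-rich class, highest at day 3 as Dll4 was, and the part of these in the result was not tested. Pan-endothelial markers summed to 79.4 to 92.1 CPM there, with Cdh5 or Tie1 at 0 in every library.

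**Figure D5:**
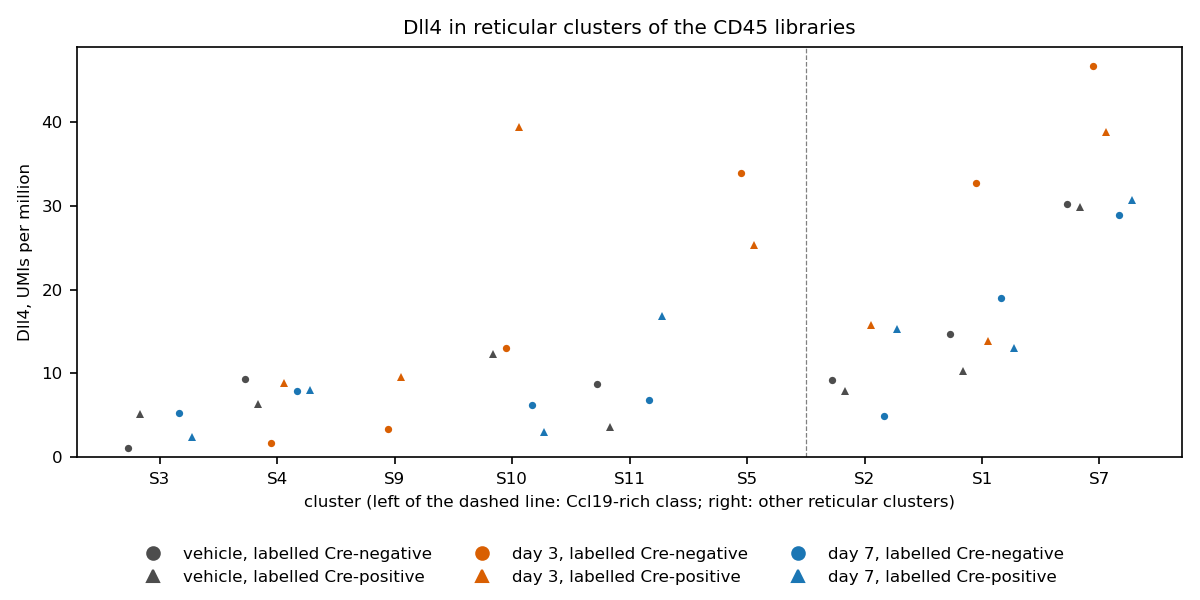
Dll4 in CPM (linear axis from 0) in reticular clusters of the CD45 libraries, 1 point per library with at least 20 cells of the cluster; clusters left of the dashed line make up the Ccl19-rich class. S5 has points at day 3 alone, at 33.9 and 25.3, and S7 has Dll4 between 28.9 and 46.7 in every library.

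In the same class Hey1 had an estimate of 1.86 (SE 0.42, edgeR adjusted p = 0.0869), from 1.36, 3.17, 7.76, 8.30, 2.58 and 3.28 CPM, and Rbpj one of -0.74 (SE 0.25, adjusted 0.141), from 162, 123, 68.8, 92.6, 105 and 146. In each case the day 3 pair lay beyond all other libraries. Without S5 the Hey1 estimate was 1.14 (edgeR adjusted p = 0.411) and the Rbpj one -0.59 (adjusted 0.370), and Rbpj at day 3, 78.3 and 107.6 CPM, overlapped day 7, at 107.4 and 147.5. Over the alternatives Hey1 ran from 1.14 to 2.61 and was called in 4 of 12, and Rbpj from -1.10 to -0.35 in 1 of 13. The make-up of the Ccl19-rich class moved beyond S5 as well. S3 gave 45.5% and 24.8% of it at vehicle and 1.68% and 3.14% at day 3, and S4 31.4% and 48.2%, then 10.3% and 7.65%. S9 gave 1.73% and 0.849% at vehicle and 21.6% and 29.4% at day 3. The part of this mix in the Hey1 and Rbpj estimates, with or without S5, was not tested. The median of the 7 genes tested was -0.36 against -0.03 over all genes. In Ccl19-poor cells no member was called at day 3 and no gene of 11288 was; Rbpj had the lowest p (-0.47, SE 0.16, adjusted 0.348), and at vehicle, 244 and 248 CPM, it stood above the other 4 libraries, at 192, 187, 214 and 179. Cluster S6, the one with most Rbpj, gave 29.3% and 41.5% of the class at vehicle and 23.1%, 27.3%, 20.8% and 19.3% after it, and within S6 Rbpj was 433, 370, 409, 392, 419 and 367; the part of this mix was not tested.

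At day 7 none of the 10 genes was called in any class by edgeR, none had an unadjusted p under 0.05 and DESeq2 called none, where 0% to 0.0372% of all genes were called. By Cre label edgeR and DESeq2 called none either, and 2 tests had an unadjusted p under 0.05. Of all genes edgeR called 0.102% by label in capillary-like cells, 0.0566% in high endothelial-like, 0.0253% in lymphatic-like, 0.0245% in tip-like, 0.0195% in venous-like, 0.0194% in arterial-like and 0% in the 3 others. Notch1 in cluster C13 had 53.8 and 65.3, 45.0 and 65.5, and 60.9 and 78.3 CPM, higher in the library labelled Cre-positive in 3 of 3 pairs (0.41, SE 0.17, edgeR adjusted p = 1.00). Jag1 in Ccl19-poor fibroblastic-like cells had 57.0 and 66.9, 44.9 and 80.4, and 47.3 and 67.5, again higher in 3 of 3 pairs (0.51, SE 0.17, edgeR adjusted p = 0.455). For Dll1 in high endothelial-like cells the label estimate was -0.16 (SE 0.19) and for Dll4 in arterial-like cells 0.09 (SE 0.14). In simulated counts with a log2 change of 1, the same test found 67% of changed genes for high endothelial-like cells at day 3 and 34% for Ccl19-rich cells, and 99% and 94% at a log2 change of 2, with 10 and 16 false calls. For the day 3 difference between high endothelial-like and capillary-like cells it found 41% and 98% at these sizes, with 2 false calls. The changed genes were drawn from those with a mean of at least 10 CPM. Neither a label effect nor a shift between clusters was simulated. Hey1 and Dll1 in the Ccl19-rich class lay below that level, at means of 4.41 and 3.61 CPM, so these shares do not cover them.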

How the data were processed

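Single-cell RNA libraries (10x 3' V2) of 2 sorted lymph node fractions were analysed, 12 in all, 1 per group. The deposited files hold UMI counts per gene and barcode, raw and not normalized; per the submitters' processing notes they were made by the authors with Cell Ranger 7.0.1 on mm10, while the file headers name Cell Ranger 4. Every barcode with UMIs was listed, so cells were called here: barcodes needed 1000 UMIs, 500 genes and at most 10% mitochondrial UMIs, and the mRFP feature of 4 libraries was dropped. Doublets were removed at 0.8% per 1000 barcodes by score, since an automatic threshold marked 0, 2 and 3 barcodes in 3 libraries; in 2 of these the removed barcodes had fewer UMIs than those kept (medians 3932.5 against 4325 and 2203 against 3433). Cells were clustered per fraction with scanpy 1.11.5 (2000 variable genes, 30 components, 20 neighbours, Leiden resolution 1, and 1.5, 0.5 or 1 within subsets) and named from marker lists. Free RNA was estimated from barcodes of 10 to 100 UMIs. UMIs were summed per library and class (at least 20 cells in each library) and tested with edgeR 4.0.16 (TMM, filtered on low counts, treatment plus label) over all genes; DESeq2 1.42.0 was an alternative, as were another scaling, no filter, free RNA subtracted, doublets put back, cells of at least 2000 UMIs and leaving out each library. Levels used log2(CPM + 1). Intervals are exact Poisson at 95% and cover counting error only. The fits were tested on simulated data. The fits of the fibroblastic-like classes, the tests of differences between classes and the fit without cluster S5 were added after the data were seen. The 10 genes, the pathway list and the markers were chosen with earlier results of these data known. The rule for genes named was all 10 members, plus the 2 genes most like each of them; clusters singled out were chosen after their values were seen. In summed data, fewer cells making a transcript and less of it per cell cannot be told apart.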

Additional observations from a re-analysis of the deposited data

Results flagged for a closer look

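In 3 cases the day 3 change of a ligand differed between 2 cell classes by a test of the difference. For Dll4 it was lower in high endothelial-like than in arterial-like cells (log2 difference -0.88, SE 0.19, edgeR adjusted p = 0.0495) and than in capillary-like cells (-1.02, SE 0.24, edgeR adjusted p = 0.0144). For Dll1 it was lower in high endothelial-like than in capillary-like cells (-1.34, SE 0.31, edgeR adjusted p = 0.0100). Over all genes, 1.17% were called in the test against arterial-like cells and 1.68% in that against capillary-like cells. These 3 calls are not firm, as given above, and none was made with cells of at least 2000 UMIs alone. The estimates were negative under every alternative run, and the Dll4 difference from arterial-like cells was called in 4 of 12 alternatives, the other 2 in 6 of 11 and 7 of 11.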

How the results depend on the processing

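No paired analysis of replicates between groups was possible because each group is 1 library and the labels give no replicate numbers to pair libraries by. Classes were compared within libraries, and Cre labels within a treatment. With 1 gene called at day 3 in the CD31 classes, no filter on low counts gave 2 and leaving out each library 0 to 3. At day 7, with 0 called, leaving out a library gave 0 to 1. In the fibroblastic-like classes at day 3, with 1 called, no filter gave 3, leaving out cluster S5 gave 0 and leaving out each library 0 to 4. Of the 3 day 3 changes that differed between classes, no filter gave 5, DESeq2 gave 0 (with no adjusted p for 2 of the 3), cells of at least 2000 UMIs gave 0 and leaving out each library 0 to 6. By Cre label the count was 0 in all of these. Of the 100 neighbouring pairs of classes in the order of levels, 86 kept their direction with free RNA subtracted, 92 with the mean of the cells' own CPM, 99 in each of 2 other settings and 90 to 95 without 1 library. Of the 26 pairs at the smallest p, 1 turned, with free RNA subtracted: Jag2 in cluster C13 minus conventional dendritic-like cells went from 0.83 to -0.24 (log2). Without 1 library the smallest p of the sign-flip test was 0.0625. Counts over all genes moved more. For high endothelial-like cells at day 3, 106 higher and 120 lower became 533 and 588 with no filter, 87 and 162 by DESeq2, and 781 and 896 without the vehicle library labelled Cre-negative; without the day 3 library labelled Cre-negative they were 56 and 107. For Ccl19-rich cells 47 and 46 became 304 and 207 by DESeq2, 1101 and 763 with no filter, 2 and 3 without S5, 0 and 0 without either day 3 library and 1739 and 1376 without the vehicle library labelled Cre-positive. The difference from arterial-like cells was called for 122 genes, 460 with no filter, 58 by DESeq2 and 1 to 727 without a library, and that from capillary-like cells for 182 genes, 44 by DESeq2, 106 with at least 2000 UMIs and 4 to 264. Few cells limit venous-like and mural-like values.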
